A study of Mus musculus with 6 samples.

Results

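The 35 genes described here belong to glycolysis and to the response of cells to low oxygen. They were chosen by name, as rows of the deposited gene table, out of 43346 genes in the table, and all 35 were found. All 35 passed the filter on low counts, which left 17554 genes for testing. The groups were primary epiphyseal chondrocytes of Girk3-null mice (Girk3-/-, 3 libraries) and of wild type mice (WT, 3 libraries). Girk3, also named Kcnj9, encodes a subunit of a G protein-gated inwardly rectifying potassium channel. Both groups were C57BL/6, labelled male and 5 days old, and the labels name no treatment. The allele is given only as Girk3-/-, with no promoter or cell type named, so it was taken as a null in the whole animal. In both groups the cells spent a night in collagenase II in culture medium before RNA extraction, so the levels are those of cells after that step and not of cells in cartilage. The comparison asks how loss of Girk3 bears on the RNA of these genes.

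Glycolysis splits glucose into pyruvate, and lactate dehydrogenase turns pyruvate into lactate when the mitochondria do not take it up. Growth plate cartilage has no blood vessels, and its chondrocytes are known to live at low oxygen and to rely on glycolysis. At low oxygen the prolyl hydroxylases of the Egln family slow down, the alpha subunits of the hypoxia-inducible factors (HIF) persist, and many genes of glucose uptake, glycolysis, mitochondrial clearance and collagen hydroxylation are switched on.

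Library totals were 60392837, 44864868 and 34279516 counts in Girk3-null replicates 1, 2 and 3, and 44291556, 50361885 and 42252651 counts in wild type replicates 1, 2 and 3. The targeted gene could not check the genotype labels, because Kcnj9 had 0 counts in all 6 libraries, which allows up to 3 counts in each. The sex label went against the RNA of 5 libraries. Counts of 4 Y-linked genes (Ddx3y, Eif2s3y, Kdm5d, Uty) summed to 16088, 1 and 7 in Girk3-null replicates 1, 2 and 3, against 0 in each wild type library. Xist, which is expressed from the inactive X chromosome of female cells, had 19, 90493 and 67346 counts in the Girk3-null libraries, against 106405, 144825 and 82827 in the wild type libraries. Girk3-null replicate 1 was therefore the only library with Y-linked RNA at a level above a few counts. Where a gene whose log2 fold change is printed below was lowest or highest in it, the value without it is given as well. The exceptions are Senp1 and Pitrm1, which overlap genes of the set and were both lowest in that replicate. All 15 chondrocyte markers were detected, with a summed level of 81909 to 130140 CPM (the gene's counts scaled to a common library size) in Girk3-null and 53252 to 88856 CPM in wild type libraries.

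HIF binds DNA at a short core, and the stretch before the transcription start was searched for its letters ACGTG and GCGTG on both strands. RefSeq windows reaching from 250 bases before to 50 bases after a start (build GRCm38.p6) were found for 31 of the 35 genes, 44 windows in all. The 4 genes with no window were Bnip3l, Ndrg1, Slc2a3 and Epas1. ACGTG on either strand was in 25 of the 44 windows (56.8%), against 19.6% of all 32851 windows and 24.2% of the 14520 windows of genes that were tested. GCGTG was in 59.1% of the 44 windows, 32.4% of all windows and 48.0% of the windows of tested genes. The windows of the 35 genes were also richer in G and C, with a median of 64.0%, against 52.7% over all windows and 60.3% over those of tested genes. The 150 bases before the start of 8 genes that hold ACGTG are printed here to show how it lies in the promoters of a transporter in each direction, enzymes, a regulator, 2 effectors and a HIF subunit. Capitals mark ACGTG, or CACGT where it lies on the other strand, and CACGTG holds both. All are written 5′ to 3′ along the gene.
Slc2a1: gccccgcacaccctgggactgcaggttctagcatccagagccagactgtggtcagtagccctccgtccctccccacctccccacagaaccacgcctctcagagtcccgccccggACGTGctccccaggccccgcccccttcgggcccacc
Pgk1: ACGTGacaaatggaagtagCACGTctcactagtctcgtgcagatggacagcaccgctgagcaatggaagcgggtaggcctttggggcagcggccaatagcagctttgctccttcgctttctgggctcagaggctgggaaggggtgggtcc
Ldha: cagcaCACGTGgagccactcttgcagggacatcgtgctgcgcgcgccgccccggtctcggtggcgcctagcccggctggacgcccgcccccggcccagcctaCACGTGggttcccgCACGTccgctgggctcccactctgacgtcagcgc
Bnip3: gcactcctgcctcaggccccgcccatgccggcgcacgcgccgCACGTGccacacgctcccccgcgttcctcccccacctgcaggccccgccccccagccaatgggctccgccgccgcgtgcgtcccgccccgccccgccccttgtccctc
Ankrd37: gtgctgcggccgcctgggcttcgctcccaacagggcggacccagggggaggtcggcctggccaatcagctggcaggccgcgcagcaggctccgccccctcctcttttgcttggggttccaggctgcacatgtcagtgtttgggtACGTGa
Slc16a3: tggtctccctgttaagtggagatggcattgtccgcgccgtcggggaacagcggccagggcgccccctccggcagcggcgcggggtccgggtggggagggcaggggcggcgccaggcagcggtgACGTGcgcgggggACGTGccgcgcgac
Pfkfb3: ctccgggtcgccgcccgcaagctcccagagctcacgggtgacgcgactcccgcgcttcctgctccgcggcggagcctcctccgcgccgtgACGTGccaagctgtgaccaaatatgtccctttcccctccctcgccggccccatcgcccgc
Hif1a: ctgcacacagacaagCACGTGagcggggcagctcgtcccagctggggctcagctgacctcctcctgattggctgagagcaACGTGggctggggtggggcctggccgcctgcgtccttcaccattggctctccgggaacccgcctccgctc
The Slc2a1 window is chr4:119108595-119108744 on the plus strand, that of Pgk1 chrX:106186950-106187099 (plus), and that of Ldha chr7:46845654-46845803 (plus). The Bnip3 window is chr7:138909507-138909656 (minus), and that of Ankrd37 chr8:45999851-46000000 (minus). The Slc16a3 window is chr11:120948917-120949066 (plus), that of Pfkfb3 chr2:11553930-11554079 (minus), and that of Hif1a chr12:73907717-73907866 (plus). Over the 31 genes with a window, ACGTG was found in 22 (71.0%), against 21.8% of all genes with a window and 28.0% of tested ones. By role it was present for both transporters with a window, 5 of 9 enzymes of upper glycolysis, 5 of 7 of lower glycolysis, 1 of 3 regulatory kinases, 3 of 3 oxygen-sensing genes and 6 of 7 effectors. A match is a description of letters, and no binding was measured.

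Levels are given as RPKM (CPM per kilobase of the listed gene length), computed here from the deposited counts with library sizes scaled by the trimmed mean of M values (TMM), so that genes and libraries can be set side by side. The most abundant was Pkm, pyruvate kinase, with a mean of 752 RPKM over the 6 libraries (704 to 805), at rank 41 of the 17554 genes tested. Aldoa followed at 558 RPKM (492 to 595), Gapdh at 546 RPKM (418 to 624), Ldha at 459 RPKM (426 to 493) and Slc2a1 at 454 RPKM (298 to 508). These 5 genes were the ones among the 100 most abundant genes of the cells, and 22 of the 35 were among the 1000 most abundant. The lowest were Eno2 at 8.10 RPKM and Pfkfb4 at 4.03 RPKM. In all, 15 genes had a mean over 100 RPKM, 18 lay between 10 and 100 RPKM, and 2 lay under 10 RPKM. Of the 34 neighbouring pairs in this order, 30 overlapped in their range over libraries. The 4 pairs that did not were Pkm over Aldoa, P4ha1 over P4ha2, Aldoc over Eno2 and Eno2 over Pfkfb4. Together the 35 genes took 1.74%, 2.05% and 1.88% of all counts in the Girk3-null libraries, against 2.10%, 2.29% and 1.98% in the wild type libraries.

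**Figure D1:**
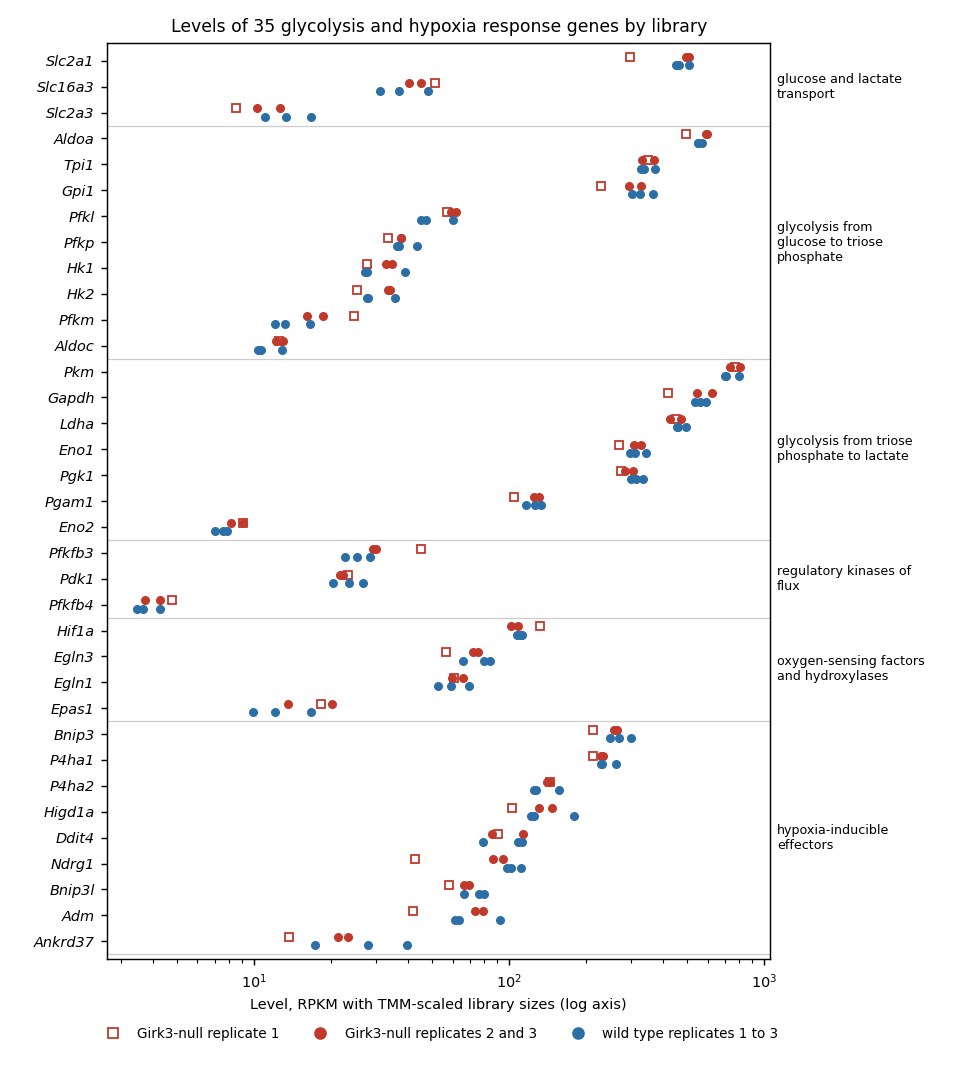
Level of each of the 35 genes in each library, in RPKM with TMM-scaled library sizes on a log axis, ordered by role; the open square is Girk3-null replicate 1, red dots are Girk3-null replicates 2 and 3, and blue dots are the 3 wild type libraries. Levels span Pfkfb4, at a mean of 4.03 RPKM, to Pkm, at 752 RPKM, and the open square lies left of all other points for 18 genes.

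No glycolytic or hypoxia response gene passed the test between Girk3-null and wild type chondrocytes. With Benjamini-Hochberg adjustment over all genes tested, 0 of the 35 reached the threshold of 0.05 by the quasi-likelihood test of edgeR, beside 0.00570% of genes (1 of 17554), and 0 did so in DESeq2 (2.24% of the 15171 genes it gave an adjusted p) or limma-voom (0.00% of 17554). Before adjustment, 2 genes with a positive log2 fold change, Pfkm and Pfkfb3, had p under 0.05 in edgeR, and 0 with a negative one, against 7.49% and 7.02% of all genes tested. Log2 fold changes of Girk3-null over wild type were positive for 16 and negative for 19 of the 35, with a median of -0.06, against 0.01 over all genes tested. Their median size, sign aside, was 0.14 on the log2 scale, against 0.22 over all genes tested. All genes tested include many less abundant ones, and their median SE was 0.19, against 0.14 for the 35. The sizes are therefore not compared at like abundance. The 3 Girk3-null libraries lay above all wild type libraries for 2 genes, Eno2 and Pfkfb3, against 9.86% of genes tested, and below them for 1 gene, Ndrg1, against 10.2%. The median SD of the genes' log2 levels between replicates was 0.16 (0.07 for Ldha to 0.51 for Ankrd37), beside 0.15 over the 8381 tested genes that were at least as abundant as the lowest of them. The adjusted p-values of all 35 genes stayed at or above 0.104 in 15 other ways of fitting. Fewer cells of a type and less RNA per cell cannot be told apart in such samples.

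**Figure D2:**
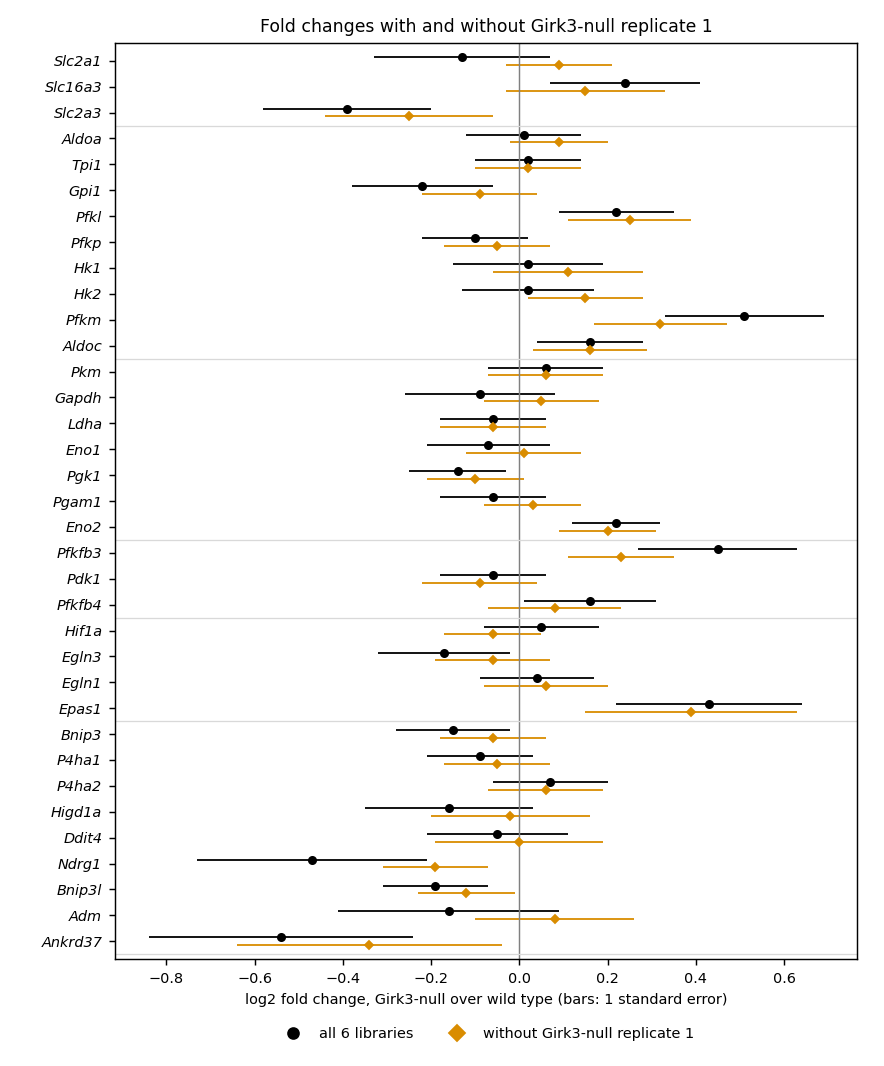
Log2 fold change of Girk3-null over wild type for each gene from edgeR, with bars of 1 standard error, from all 6 libraries (black dots) and without Girk3-null replicate 1 (orange diamonds). Values from all 6 libraries run from -0.54 for Ankrd37 to 0.51 for Pfkm, and without that replicate 24 of the 35 are smaller in size.

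Among the transporters, Slc2a1, the GLUT1 glucose importer, had 298, 495 and 508 RPKM in the Girk3-null libraries, against 449, 508 and 463 RPKM in the wild type libraries. Girk3-null replicate 1 was far below the other 5 libraries, which lay close together, and the groups overlapped. The log2 fold change was -0.13 ± 0.20 (SE, n = 3 each; edgeR adjusted p = 0.786), and it was 0.09 without that replicate. Slc2a3, the GLUT3 glucose importer, had 8.48, 12.6 and 10.3 RPKM in Girk3-null libraries, against 16.7, 13.3 and 10.99 RPKM in wild type libraries. Its groups also overlapped, with a log2 fold change of -0.39 ± 0.19 (edgeR adjusted p = 0.366), and -0.25 without Girk3-null replicate 1. Slc16a3, the MCT4 lactate exporter, had 51.0, 40.6 and 45.1 RPKM in Girk3-null libraries, against 37.2, 31.04 and 47.9 RPKM in wild type libraries. Here 1 wild type library reached into the Girk3-null range, and the log2 fold change was 0.24 ± 0.17 (edgeR adjusted p = 0.506), or 0.15 without Girk3-null replicate 1.

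The enzymes from glucose to triose phosphate had a median log2 fold change of 0.02, positive for 7 of 9. Hk2, a hexokinase that traps glucose in the cell as its phosphate, had 25.2, 33.4 and 33.99 RPKM in Girk3-null libraries, against 27.9, 27.8 and 35.8 RPKM in wild type libraries. The libraries of both groups were interleaved, and the log2 fold change was 0.02 ± 0.15 (edgeR adjusted p = 0.969), or 0.15 without Girk3-null replicate 1. Hk1, the other hexokinase of the set, ranged over 27.7 to 34.8 RPKM in Girk3-null and 27.1 to 39.2 RPKM in wild type libraries. Gpi1, glucose-6-phosphate isomerase, had 230.0, 329 and 296 RPKM in Girk3-null libraries, against 327, 368 and 304 RPKM in wild type libraries. Replicate 1 of the Girk3-null group was again the lowest, and the log2 fold change of -0.22 ± 0.16 (edgeR adjusted p = 0.521) was -0.09 without it.

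Phosphofructokinase commits sugar to glycolysis and has 3 genes, named for liver (Pfkl), platelet (Pfkp) and muscle (Pfkm). Pfkm had the smallest p of the 35 genes, with 24.7, 18.7 and 16.1 RPKM in Girk3-null libraries, against 13.3, 12.1 and 16.5 RPKM in wild type libraries. The groups overlapped by 1 library each, Girk3-null replicate 3 and wild type replicate 3. The log2 fold change was 0.51 ± 0.18 (unadjusted p = 0.0202 and adjusted p = 0.297 in edgeR), and 0.32 without Girk3-null replicate 1. Over 1156 bases Pfkm lies across Senp1, a gene on the other strand whose counts amounted to 75.8% of those of Pfkm. The strand setting of the counting is not given. Senp1 itself had 2.92, 3.16 and 3.00 RPKM in Girk3-null libraries, against 3.43, 3.53 and 3.38 RPKM in wild type libraries, with a log2 fold change of -0.19 ± 0.10, and the part of shared reads in the Pfkm values was not tested. The summed level of 14 skeletal muscle markers was 33.4 to 45.3 CPM in Girk3-null libraries and 44.9 to 85.7 CPM in wild type libraries, with positive log2 fold changes for 5 of the 14, and their part in the Pfkm values was not tested. Pfkl had 57.3, 59.2 and 61.9 RPKM in Girk3-null libraries, against 47.3, 45.3 and 60.03 RPKM in wild type libraries. The third wild type library lay within the Girk3-null range, and the log2 fold change was 0.22 ± 0.13 (edgeR adjusted p = 0.420).

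Aldolase splits the 6-carbon sugar into triose phosphates. Aldoa had 492, 595 and 591 RPKM in Girk3-null libraries, against 551, 550.3 and 569.5 RPKM in wild type libraries, with a log2 fold change of 0.01 ± 0.13 (edgeR adjusted p = 0.988), or 0.09 without Girk3-null replicate 1. Its minor partner Aldoc had 12.5, 12.9 and 12.2 RPKM in Girk3-null libraries, against 12.8, 10.6 and 10.3 RPKM in wild type libraries. The first wild type library lay among the Girk3-null libraries, and the log2 fold change was 0.16 ± 0.12 (edgeR adjusted p = 0.516). Pfkp ranged over 33.6 to 37.7 RPKM in Girk3-null and 36.3 to 43.5 RPKM in wild type libraries, with a log2 fold change of -0.10 ± 0.12, or -0.05 without Girk3-null replicate 1. It shares 372 bases with Pitrm1 on the other strand, whose counts amounted to 18.2% of those of Pfkp and whose log2 fold change was -0.14 ± 0.11. The part of shared reads in the Pfkp values was not tested. Tpi1, which interconverts the 2 triose phosphates, ranged over 331 to 370 RPKM in Girk3-null and 329 to 375 RPKM in wild type libraries.

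The enzymes from triose phosphate to lactate had a median log2 fold change of -0.06, positive for 2 of 7. Gapdh, which oxidises glyceraldehyde 3-phosphate, had 418, 624 and 543 RPKM in Girk3-null libraries, against 563, 594 and 535 RPKM in wild type libraries. Girk3-null replicate 1 was the lowest of the 6, and replicate 2 the highest, so that the Girk3-null libraries enclosed all wild type ones. The log2 fold change was -0.09 ± 0.17 (edgeR adjusted p = 0.814), and 0.05 without replicate 1. Pgk1, which makes the first ATP of the pathway, had 274, 305 and 284 RPKM in Girk3-null libraries, against 301, 336 and 313 RPKM in wild type libraries. The groups touched, with 1 Girk3-null library above the lowest wild type one, and the log2 fold change was -0.14 ± 0.11 (edgeR adjusted p = 0.567), or -0.10 without Girk3-null replicate 1. Its window shown above holds ACGTG on each strand.

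Eno2, the neuronal type of enolase, had 9.05, 8.10 and 9.04 RPKM in Girk3-null libraries, against 7.57, 6.998 and 7.86 RPKM in wild type libraries. Every Girk3-null library lay above every wild type one, by a narrow margin, and the log2 fold change was 0.22 ± 0.10 (edgeR adjusted p = 0.355), or 0.20 without Girk3-null replicate 1. Scaling by library totals alone gave 0.12. The abundant enolase Eno1 ranged over 270.1 to 330.4 RPKM in Girk3-null and 298 to 345 RPKM in wild type libraries, and Pgam1, phosphoglycerate mutase, over 105 to 131 RPKM and 117 to 134 RPKM. Pkm had 767, 805 and 733 RPKM in Girk3-null libraries, against 704, 708 and 797 RPKM in wild type libraries. Its groups overlapped through the third wild type library, and the log2 fold change was 0.06 ± 0.13 (edgeR adjusted p = 0.838). Ldha, which reduces pyruvate to lactate, had 453, 471 and 426 RPKM in Girk3-null libraries, against 457, 493 and 455 RPKM in wild type libraries. It varied least between replicates of all 35 genes, and its log2 fold change was -0.06 ± 0.12 (edgeR adjusted p = 0.835). Summed over the glycolytic enzymes, levels were 3551, 4164 and 3843 RPKM in Girk3-null libraries, against 3839, 4070 and 3940 RPKM in wild type libraries, so the groups overlapped.

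The regulatory kinases set how fast sugar enters glycolysis or leaves it for the mitochondria. Pfkfb3, which makes the phosphofructokinase activator fructose 2,6-bisphosphate, had 45.1, 29.3 and 30.1 RPKM in Girk3-null libraries, against 22.7, 25.3 and 28.4 RPKM in wild type libraries. Girk3-null replicate 1 stood well above the rest, and the other 2 Girk3-null libraries were just above the highest wild type library. The log2 fold change was 0.45 ± 0.18 (unadjusted p = 0.0339 and adjusted p = 0.318 in edgeR), and 0.23 without replicate 1. Pdk1, which phosphorylates pyruvate dehydrogenase and so holds pyruvate out of the mitochondria, had 23.4, 21.8 and 22.4 RPKM in Girk3-null libraries, against 20.4, 23.5 and 26.8 RPKM in wild type libraries. The Girk3-null libraries lay inside the wild type range, and the log2 fold change was -0.06 ± 0.12 (edgeR adjusted p = 0.814). Pfkfb4, a second kinase of the Pfkfb family, ranged over 3.74 to 4.77 RPKM in Girk3-null and 3.49 to 4.26 RPKM in wild type libraries.

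Among the oxygen-sensing genes, Hif1a, the HIF-1 alpha subunit, had 132, 102 and 108 RPKM in Girk3-null libraries, against 113, 107 and 110.1 RPKM in wild type libraries. Apart from Girk3-null replicate 1 the libraries lay close together, and the log2 fold change was 0.05 ± 0.13 (edgeR adjusted p = 0.864), and -0.06 without that replicate. HIF-1 alpha is controlled mainly through the stability of its protein, which RNA does not show. Epas1, which encodes HIF-2 alpha, had 18.3, 13.5 and 20.2 RPKM in Girk3-null libraries, against 12.0, 9.88 and 16.7 RPKM in wild type libraries. The groups overlapped, and the log2 fold change was 0.43 ± 0.21 (edgeR adjusted p = 0.372), or 0.39 without Girk3-null replicate 1. Epas1 is also abundant in endothelial cells, whose 14 markers summed to 82.7, 140.5 and 163 CPM in Girk3-null libraries, against 225, 276 and 188 CPM in wild type libraries. It also has a known part in chondrocyte hypertrophy, and 10 hypertrophic markers summed to 25414, 13621 and 15156 CPM in Girk3-null libraries, against 12473, 11827 and 16631 CPM in wild type libraries. Log2 fold changes were positive for 3 of the 14 endothelial markers and for 9 of the 10 hypertrophic markers. The part of either marker list in the Epas1 values was not tested. Egln3, a prolyl hydroxylase that is itself induced by HIF, had 56.4, 75.4 and 71.9 RPKM in Girk3-null libraries, against 65.7, 80.0 and 84.2 RPKM in wild type libraries. Its groups overlapped, with a log2 fold change of -0.17 ± 0.15 (edgeR adjusted p = 0.571), or -0.06 without Girk3-null replicate 1. Egln1, the main prolyl hydroxylase of HIF, ranged over 59.9 to 66.0 RPKM in Girk3-null and 52.4 to 69.8 RPKM in wild type libraries.

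The 9 effectors induced by hypoxia had a median log2 fold change of -0.16, and 8 of the 9 values were negative. Leaving out Girk3-null replicate 1 gave a median of -0.05, leaving out wild type replicate 2 gave -0.03, and leaving out wild type replicate 1 gave -0.24. It was -0.28 with library totals and -0.26 in the RPKM fits. Ndrg1, a stress-responsive gene induced by hypoxia, had 42.6, 94.98 and 86.5 RPKM in Girk3-null libraries, against 101, 111 and 98.3 RPKM in wild type libraries. All Girk3-null libraries lay below all wild type ones, with replicate 1 far below every other library and the other 2 just under the wild type range. The log2 fold change was -0.47 ± 0.26 (edgeR adjusted p = 0.411), and -0.19 without replicate 1 (edgeR adjusted p = 0.582). With library totals alone it was -0.59. With the title number, below or above 200, as a covariate it was -0.72 ± 0.27 (unadjusted p = 0.0284 and adjusted p = 0.383 in edgeR). Ankrd37, a small ankyrin repeat gene and HIF target, had 13.7, 23.4 and 21.3 RPKM in Girk3-null libraries, against 27.9, 39.7 and 17.4 RPKM in wild type libraries. Its groups overlapped and its spread was the widest of the 35 genes, with a log2 fold change of -0.54 ± 0.30 (edgeR adjusted p = 0.407), or -0.34 without Girk3-null replicate 1 and -0.22 without wild type replicate 2. Ankrd37 shares 57 bases with Ufsp2 on the other strand, whose counts were more numerous than its own.

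Bnip3l, also called Nix, a receptor that marks mitochondria for removal, had 58.2, 66.5 and 69.7 RPKM in Girk3-null libraries, against 66.6, 79.5 and 76.5 RPKM in wild type libraries. The groups overlapped, and the log2 fold change was -0.19 ± 0.12 (edgeR adjusted p = 0.448), or -0.12 without Girk3-null replicate 1. Bnip3l is known for its part in red cell maturation, and the summed level of the 13 erythroid markers found was 57.2, 163 and 91.2 CPM in Girk3-null libraries, against 215, 282 and 80.1 CPM in wild type libraries; their part in the Bnip3l values was not tested. Bnip3, its paralog, ranged over 214 to 264 RPKM in Girk3-null and 248 to 301 RPKM in wild type libraries. Adm, adrenomedullin, a vessel-widening peptide named here after its values were seen, had 42.2, 78.9 and 73.4 RPKM in Girk3-null libraries, against 63.4, 92.0 and 61.5 RPKM in wild type libraries. Its value in Girk3-null replicate 1 was the lowest of the 6, while the others of both groups were interleaved, and the log2 fold change was -0.16 ± 0.25 with it and 0.08 without it. The collagen prolyl hydroxylase subunit P4ha1 ranged over 213 to 234 RPKM in Girk3-null and 229 to 262 RPKM in wild type libraries, and P4ha2 over 140.5 to 144 RPKM and 125 to 157 RPKM. Ddit4, an inhibitor of mTORC1 signalling, ranged over 85.7 to 114 RPKM in Girk3-null and 78.9 to 112 RPKM in wild type libraries. Higd1a, a mitochondrial protein induced by hypoxia, ranged over 103 to 148 RPKM in Girk3-null and 122 to 179 RPKM in wild type libraries.

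Girk3-null replicate 1 was the lowest of the 6 libraries for 18 of the 35 genes (51.4%), against 25.3% of all genes tested. It was the highest for 6 of the 35 (17.1%), against 27.8% of all genes tested. The 18 included Slc2a1, Gpi1, Gapdh, Ndrg1, Adm and Ankrd37, and 13 of them were more than 10% below the next library. The 6 were Pfkfb3, Pfkm, Hif1a, Pfkfb4, Slc16a3 and Eno2, and 4 of them were more than 10% above the next library. Wild type replicate 2 was the highest library for 14 of the 35 genes (40.0%), against 21.2% of all genes tested. Among the effectors, 7 of 9 were lowest in Girk3-null replicate 1 and 7 of 9 were highest in wild type replicate 2. Mean deviations from the gene means over the 9 effectors were -0.38, 0.05 and 0.04 on the log2 scale in Girk3-null replicates 1, 2 and 3, against 0.03, 0.31 and -0.04 in wild type replicates 1, 2 and 3. For the 3 regulatory kinases they were 0.30, 0.00 and -0.04 in the Girk3-null libraries, against -0.23, -0.13 and 0.09 in the wild type libraries. Of the genes with a promoter window, ACGTG was present in 11 of 15 that were lowest in Girk3-null replicate 1, in 4 of 6 that were highest there and in 7 of 10 others. That replicate was also the library with Y-linked RNA, the largest total and the highest summed hypertrophic marker level. Of the 10 markers in that sum, 7 were highest there. Spp1, 1 of these, had 12710 RPKM there, against 4906 to 6539 RPKM in the other libraries. Col10a1, the collagen that defines hypertrophic chondrocytes, was the 1 marker lowest there, at 312 RPKM, against 654 to 1104 RPKM. The part of these features in the values of Girk3-null replicate 1 was not tested.

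**Figure D3:**
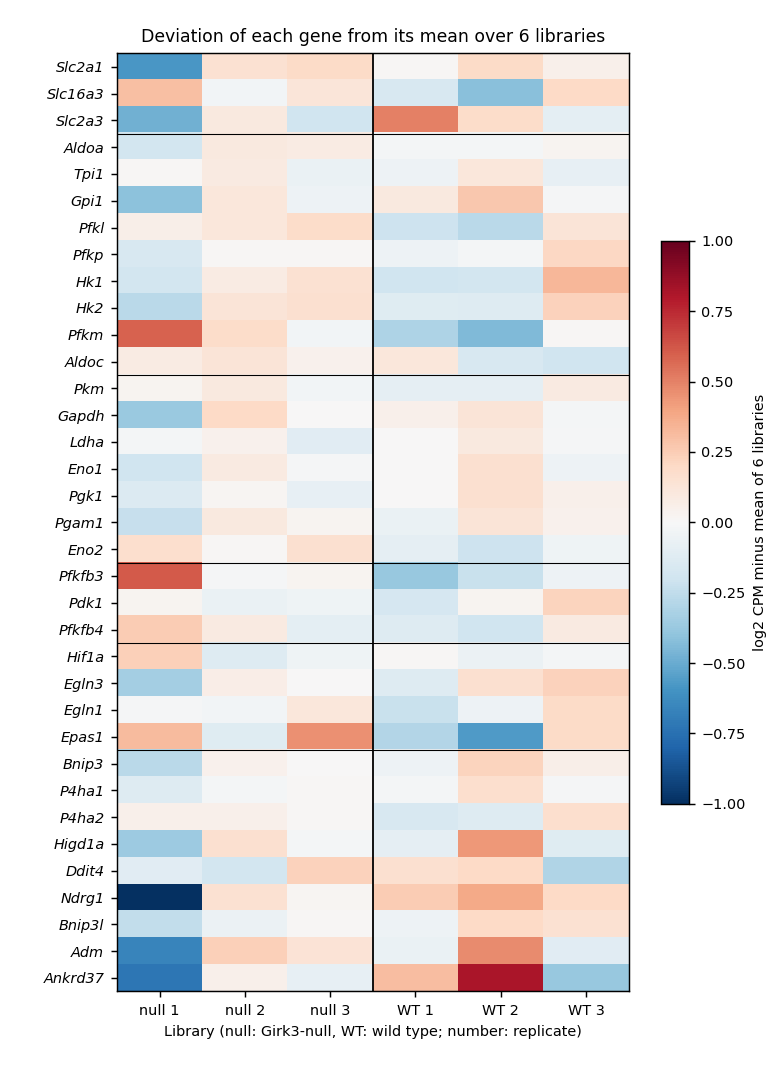
Deviation of each gene's log2 CPM from its mean over the 6 libraries, as colour, with the Girk3-null libraries (null 1 to 3) left of the wild type libraries (WT 1 to 3) and horizontal lines between roles. The column of null 1 is blue for 18 genes that were lowest there, and the strongest colours are Ndrg1 in null 1, the lowest value, and Ankrd37 in WT 2, the highest, at 0.82.

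**Figure D4:**
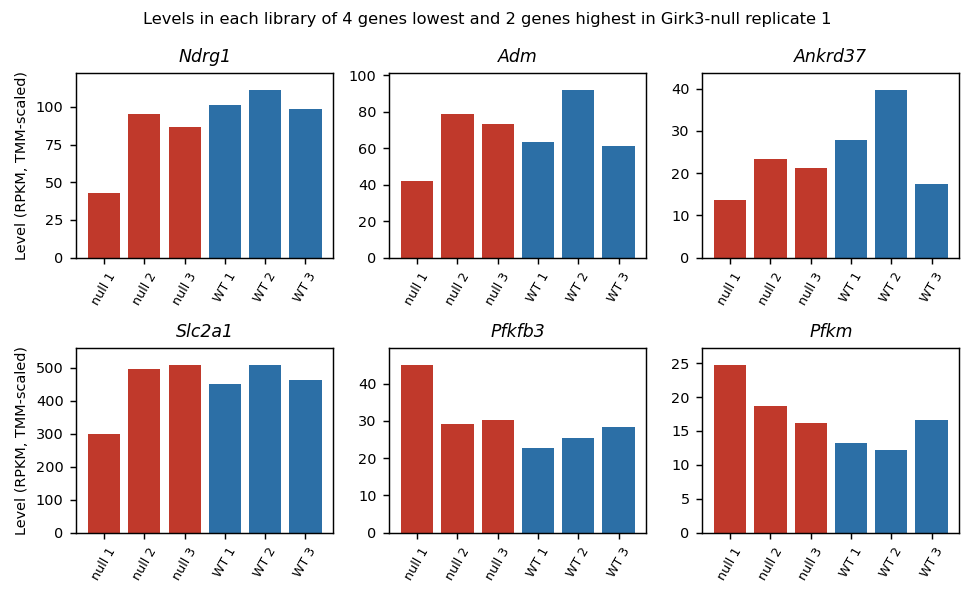
Level in RPKM, with TMM-scaled library sizes, of 4 genes that were lowest and 2 that were highest in Girk3-null replicate 1; each bar is 1 library, red for Girk3-null and blue for wild type. Ndrg1 stood at 42.6 RPKM in Girk3-null replicate 1, while the other 5 libraries lay between 86.5 and 111 RPKM, and Pfkfb3 stood at 45.1 RPKM there, while the others lay between 22.7 and 30.1 RPKM.

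Without Girk3-null replicate 1 the comparison of the 35 genes shifted. The median log2 fold change was 0.03, and 20 values were positive. None of the 35 had an unadjusted p under 0.05 in edgeR without it, against 1680 of the 17554 genes tested with all libraries. None of the 35, and none of those genes, had an adjusted p under 0.05 in that edgeR fit. The log2 fold change was smaller in size for 24 of the 35 genes, and 7 changed sign. Their median size, sign aside, went from 0.14 to 0.09, and that over all genes tested from 0.22 to 0.19, again not at like abundance. Sample titles carry numbers whose meaning the labels do not give, and these fall below 200 for Girk3-null replicate 1 and wild type replicates 1 and 2, and above 200 for the others. Within the libraries below 200 the median difference of log2 levels, Girk3-null minus wild type, was -0.14, with 14 of 35 values positive. Within those above 200 it was 0.01, with 18 of 35 positive. The sign was the same in both sets for 13 of the 35 genes, of which 5 were higher and 8 lower in Girk3-null cells. For Ndrg1 the difference was -1.32 below 200 and -0.12 above 200, for Pfkm 0.96 and 0.07, for Pfkfb3 0.91 and 0.07, and for Epas1 0.75 and -0.02. In the first of these sets the Girk3-null group is replicate 1 alone, and in the second the wild type group is replicate 3 alone, so neither gives a test.

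Many steps are served by paralogs, and the share of each was taken from the summed RPKM of its family, which does not depend on how libraries are scaled. Slc2a1 made up 97.6 ± 0.397% of its pair with Slc2a3 in Girk3-null and 97.2 ± 0.673% in wild type libraries (SD, n = 3 each). The hexokinases were evenly matched, with Hk1 at 50.9 ± 1.34% of its pair with Hk2 in Girk3-null and 50.5 ± 1.61% in wild type libraries. Aldoa made up 97.8 ± 0.242% of its pair in Girk3-null and 98.02 ± 0.260% in wild type libraries. In every library Slc2a1 and Aldoa thus dominated their pairs, and the hexokinases were close to equal. Eno1 made up 97.2 ± 0.424% of the enolase pair in Girk3-null and 97.7 ± 0.294% in wild type libraries. Hif1a made up 86.8 ± 2.20% of its pair with Epas1 in Girk3-null and 89.6 ± 2.48% in wild type libraries. Egln1 made up 48.0 ± 3.80% of its pair with Egln3 in Girk3-null and 44.0 ± 1.48% in wild type libraries, a difference of 3.96 percentage points, or 2.03 without Girk3-null replicate 1. For the first-named gene of each of the 10 families the groups overlapped, and exact permutation tests (two-sided, 3 against 3, smallest p possible 0.1) gave p from 0.2 to 0.7, or 0.571 to 0.7 adjusted over the 10.

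The phosphofructokinase family was the one in which a share lay apart between the groups, and its Pfkp and Pfkm shares were computed after the values had been seen. Pfkp made up 29.1%, 32.6% and 32.6% of the summed phosphofructokinase RPKM in Girk3-null libraries, against 37.5%, 39.2% and 36.2% in wild type libraries. Pfkm made up 21.4%, 16.2% and 13.9% in Girk3-null libraries, against 13.7%, 12.8% and 13.8% in wild type libraries. All Girk3-null libraries were below all wild type ones for Pfkp and above them for Pfkm, by a small margin for Pfkm in replicate 3. The exact permutation p was 0.1 for each, the smallest that 3 against 3 allows, and 0.48 adjusted over 12 shares. Without Girk3-null replicate 1 the difference for Pfkp was -5.06 percentage points, against -6.22 with it, and that for Pfkm was 1.64, against 3.74 with it. The stretches that Pfkp and Pfkm share with Pitrm1 and Senp1, given above, bear on these shares too. Pfkl, the most abundant of the family, made up 51.4 ± 1.97% in Girk3-null and 48.9 ± 1.02% in wild type libraries (SD, n = 3 each).

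**Figure D5:**
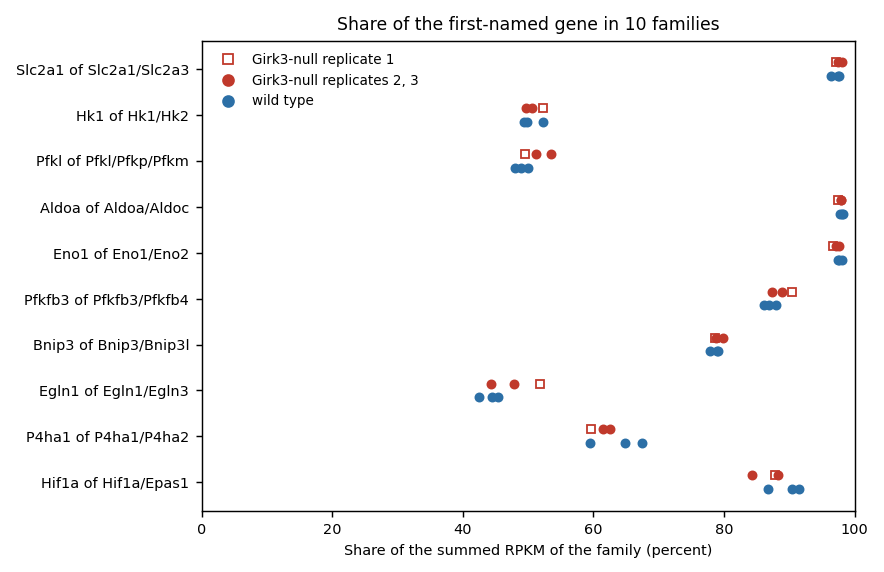
Share of the first-named gene in the summed RPKM of its family, in percent, in each library; the open square is Girk3-null replicate 1, red dots are Girk3-null replicates 2 and 3, and blue dots are wild type libraries. For these first-named genes the groups overlap in all 10 families, from Slc2a1 and Aldoa at over 96% to Hk1 and Egln1 near the middle of the axis.

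Further genes of the same pathways were taken from a list of other glycolytic enzymes, pyruvate regulators, HIF partners and HIF targets, of which 74 were found and 72 tested. After adjustment 0 of the 72 reached the threshold in edgeR (quasi-likelihood) or limma-voom, and 1 did in DESeq2, where 2.24% of all genes did. Before adjustment, 9 with positive and 5 with negative log2 fold changes had p under 0.05 in edgeR, beside 7.49% and 7.02% of all genes tested. The median log2 fold change was -0.03, with 34 positive and 38 negative. All Girk3-null libraries lay above all wild type ones for 6 of the 72, beside 9.86% of all genes tested. They lay below them for 7, beside 10.2%. Car12, a carbonic anhydrase of the cell surface, had 11.9, 12.1 and 8.87 RPKM in Girk3-null libraries, against 5.51, 5.52 and 7.68 RPKM in wild type libraries. Its groups did not overlap, and the log2 fold change was 0.81 ± 0.17 (adjusted p = 0.291 in edgeR and 0.00707 in DESeq2). Cox4i2, a subunit of cytochrome c oxidase induced by low oxygen, had 115, 91.5 and 77.5 RPKM in Girk3-null libraries, against 65.4, 55.3 and 74.5 RPKM in wild type libraries. Its groups did not overlap either, with a log2 fold change of 0.54 ± 0.17 (edgeR adjusted p = 0.291), or 0.38 without Girk3-null replicate 1. Kdm3a, a histone demethylase induced by HIF, had 21.4, 30.9 and 28.7 RPKM in Girk3-null libraries, against 38.7, 44.1 and 32.2 RPKM in wild type libraries. All its Girk3-null libraries lay below the wild type ones, with a log2 fold change of -0.51 ± 0.17 (edgeR adjusted p = 0.291), or -0.36 without Girk3-null replicate 1. Stc1, stanniocalcin, had 3.65, 4.01 and 2.97 RPKM in Girk3-null libraries, against 9.06, 10.2 and 3.38 RPKM in wild type libraries. The third wild type library lay within the Girk3-null range, and without it Stc1 passed the test (edgeR adjusted p = 0.0351), as 0.410% of all genes did, with all 6 libraries not (log2 fold change -1.09 ± 0.35, edgeR adjusted p = 0.291). These 72 genes were thus divided in direction, as the 35 were.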

How the data were processed

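RNA of 6 libraries, 3 Girk3-null and 3 wild type, was measured by sequencing of polyadenylated RNA. The submitters' processing notes name bcl2fastq 2.19.0, STAR 2.5.2b and the build mm10. Which tool counted the reads, and with what strand setting, is not given in the sources used here. Raw counts per gene stand in the deposited table, per the file headers. Beside them are RPKM, which the authors made by correcting for library total and gene length, per the labels' protocols. Levels were recomputed from the deposited counts and listed gene lengths with TMM-scaled library sizes. The main test was edgeR 4.0.16 (quasi-likelihood, genotype alone, TMM, filterByExpr with a minimum count of 10 and minimum total of 15) in R 4.3.3, with Benjamini-Hochberg adjustment over 17554 genes at a threshold of 0.05, checked on simulated data. Alternatives used DESeq2 1.42.0 and limma 3.58.1. Paralog shares of the deposited RPKM were compared by exact permutation in scipy 1.17.1.

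The 35 genes and all lists were chosen with earlier results of these data known. Values in every library are given for the 14 genes with the smallest p, for Hif1a, Epas1, Slc2a1, Ldha, Pgk1, Pdk1, Gapdh and Hk2, and for the 5 most abundant. Up to 4 other pathway genes with the smallest p are named. Samples were grouped by the genotype label, and replicates numbered in deposit order, so numbers pair no samples. All 35 genes lay at the same place in the annotation used here. Of them, 14 overlap another gene and 8 near-copies of them are named in the table, the largest with 7368 counts, so shared reads are uncertain. Promoter windows came from RefSeq, whose starts can differ from the listed gene starts. The last 20 bases of 40 of the 44 windows were found in an annotated transcript.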

Additional observations from a re-analysis of the deposited data

How the results depend on the processing

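No member passed the adjusted threshold under any of 15 alternatives (smallest adjusted p 0.104). No paired analysis was possible because replicate numbers follow deposit order. Over the whole table edgeR called 1 gene, higher in Girk3-null cells. The count was 0 with limma-voom, library totals, the title number as a covariate and each of the 3 RPKM fits. DESeq2 called 340 genes, of which 184 were higher and the rest lower, and edgeR with no filter on low counts called 53, of which 35 were higher and 18 lower. Leaving out 1 library gave 0 to 74 genes called, of which 0 to 28 were higher and 0 to 46 lower, the most without wild type replicate 3. Other pathway genes called were 1 (Car12) with DESeq2 and 0 to 1 (Stc1) with 1 library left out. The cause was not tested.

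Members at an unadjusted p under 0.05 were 2, but 3 with the title covariate, 4 with library totals and 6 with no filter on low counts. With 1 library left out there were 0 to 7. The count was 0 when Girk3-null replicate 1 or wild type replicate 1 or 2 was left out. It was 5 when Girk3-null replicate 2 was left out, and 7 when wild type replicate 3 was. Except without Girk3-null replicate 1, no share of all genes at that p is given for these alternatives. The counts are therefore not read as particular to the members. The median log2 fold change of the 35 genes, -0.06, was -0.17 with library totals and -0.16 in each RPKM fit, and -0.08 to 0.03 with 1 library left out. The median of all genes moved to -0.09 with library totals. The sign of 27 of the 35 was the same in all scalings, and Hk1, Hk2, Aldoa, Tpi1, Pkm, Hif1a, Egln1 and P4ha2 flipped with library totals. The median of upper glycolysis was -0.09 and of lower glycolysis -0.17 with library totals and in each RPKM fit. That of transport was -0.28 with the title covariate and -0.27 in each RPKM fit. With 1 library left out, upper glycolysis ranged from -0.03 to 0.11, lower glycolysis from -0.13 to 0.03 and transport from -0.25 to 0.09. Of 525 single-gene values, 68 changed sign, 66 of them within 1 SE, and 14 in 11 genes moved by more than 1 SE. Within-title values and the Pfkp and Pfkm shares were chosen after seeing the data.

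Depth was ample for these genes, and 3 libraries a group limit the precision.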
